A study of Homo sapiens with 6 samples.

Results

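The 10 genes described here encode brakes on mitogen-activated protein kinase (MAPK) signalling: the dual-specificity phosphatases DUSP1, DUSP4, DUSP5, DUSP6, DUSP8, DUSP10 and DUSP16, the Sprouty adaptors SPRY2 and SPRY4, and the Sprouty-related SPRED1. They were chosen by gene symbol, and each symbol matched 1 of the 58174 gene rows. They were measured in T24, a cell line from a human bladder carcinoma, which was infected with lentivirus carrying either a scrambled control shRNA (shRNA-NC) or an shRNA against UBC9 (shRNA-UBC9), the conjugating enzyme of the SUMO pathway, and was selected with puromycin as a stable population. Poly(A) RNA of 3 samples of each group was sequenced. Only this 1 UBC9 hairpin was used, and the labels do not say whether the samples of a group came from separate cultures, so the p-values measure the spread between these samples, which may be technical.

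In the ERK pathway, growth factor receptors act through GRB2, SOS, RAS and RAF on MEK and ERK, and stress or cytokines act through parallel kinases on JNK and p38. Dual-specificity phosphatases remove the phosphates that activate ERK, JNK or p38. Sprouty and SPRED proteins act higher up, on the step from receptor to RAS and RAF. Several of these genes are themselves transcribed in response to ERK, JNK or p38 activity and so form negative feedback loops. T24 cells carry an activating mutation of HRAS, one of the RAS genes. RNA levels do not report the activity of the kinases.

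Of the 10 genes, 7 rose and 1 fell in shRNA-UBC9 at an adjusted p-value below 0.05, and 2 did not pass the test. Among all 12428 tested genes, 18.8% rose and 18.0% fell, 36.8% in all. The 7 that rose were DUSP5, DUSP6, DUSP8, DUSP10, DUSP16, SPRY4 and SPRED1. DUSP4 was the gene that fell, and DUSP1 and SPRY2 were the 2 that did not pass. The test was limma on log2(RPKM + 0.1), where RPKM is a read count scaled to the length of the gene and to the mapped reads of the sample, and every fold change below is on that scale unless RPKM is named. DUSP8 passed the expression filter only through its shRNA-UBC9 samples, so it had to differ. Of the other 9 genes, 6 rose and 1 fell. The median log2 fold change was 0.99 over the 10 genes, 0.95 over these 9, and 0.005 over all tested genes.

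With the cutoff of the study, a |log2 fold change| > 1 beside the adjusted p-value, 5 of the 10 were up-regulated, namely DUSP5, DUSP8, DUSP10, DUSP16 and SPRY4, against 5.20% of all tested genes (7.89% in either direction). Without DUSP8, which the filter kept for its shRNA-UBC9 samples, this was 4 of 9. None of the 10 was down-regulated by that cutoff, against 2.70% of all tested genes, with DUSP4 just short of it at a log2 fold change of -0.99. This call turned in 7 of 15 alternatives, where DUSP4 passed with values down to -1.04, among them both other scalings and the fits without shRNA-NC replicate 1, shRNA-NC replicate 2 or shRNA-UBC9 replicate 1. DUSP16 and SPRY4, each at 1.04, were just past it, and DUSP6 at 0.95 just short of it. With a pseudocount of 1 in place of 0.1, DUSP5 alone passed this cutoff, while the count of genes that rose at an adjusted p-value below 0.05 was again 7.

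Promoters of 4 of the genes are shown first, DUSP8 and DUSP1 because they share a motif, and DUSP6 and SPRY4 because they are ERK feedback genes that rose. Each is the 250 bases before the transcription start, on the strand of the gene, from RefSeq (GRCh38.p14). They lie at chr11:1572272-1572521 for DUSP8, chr5:172771196-172771445 for DUSP1, chr12:89352502-89352751 for DUSP6 and chr5:142324248-142324497 for SPRY4, all on the minus strand. The SPRY4 start of the table lies inside the gene as GENCODE release 44 draws it. Capitals mark the cyclic AMP response element (CRE, TGACGTCA) and, in DUSP1, the TATA box (TATAAA).
DUSP8: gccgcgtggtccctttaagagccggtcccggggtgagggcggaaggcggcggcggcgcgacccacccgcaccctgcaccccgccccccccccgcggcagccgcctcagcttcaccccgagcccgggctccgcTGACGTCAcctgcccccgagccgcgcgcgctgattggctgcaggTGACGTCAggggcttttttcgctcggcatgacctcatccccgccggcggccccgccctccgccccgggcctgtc
DUSP1: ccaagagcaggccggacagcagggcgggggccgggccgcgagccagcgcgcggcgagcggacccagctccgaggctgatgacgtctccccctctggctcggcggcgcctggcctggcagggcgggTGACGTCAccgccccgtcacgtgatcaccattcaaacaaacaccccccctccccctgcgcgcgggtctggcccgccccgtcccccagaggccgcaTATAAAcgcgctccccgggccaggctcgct
DUSP6: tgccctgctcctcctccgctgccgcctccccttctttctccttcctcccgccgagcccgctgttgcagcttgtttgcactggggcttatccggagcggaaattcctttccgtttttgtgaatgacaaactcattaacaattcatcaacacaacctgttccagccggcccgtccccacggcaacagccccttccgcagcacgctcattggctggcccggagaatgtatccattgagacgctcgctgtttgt
SPRY4: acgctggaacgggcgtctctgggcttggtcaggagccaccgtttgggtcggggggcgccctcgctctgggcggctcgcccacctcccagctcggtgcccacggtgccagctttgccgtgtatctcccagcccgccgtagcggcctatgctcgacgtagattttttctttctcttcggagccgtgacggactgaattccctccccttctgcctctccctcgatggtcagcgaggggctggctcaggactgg

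From the table of promoters, 8 of the 10 genes were searched in 11 windows, since DUSP10 has 2 starts and SPRY2 has 3. Windows on chromosome 8, where DUSP4 lies, were left out for the 10 genes but not for the shares over all promoters. DUSP4, the gene that fell, was therefore not searched, and no window matched DUSP5. Motifs were searched on both strands in the same 250 bases. The CRE was found in DUSP1, beginning 125 bases before the start, and in DUSP8, where it occurred 2 times, beginning 118 and 74 bases before the start. It was present in 1.65% of the 35116 promoters of the table. DUSP8 had the largest ratio of mean RPKM of the 10 genes, and DUSP1 did not pass the test (values below). The AP-1 motif TGANTCA, present in 6.57% of all promoters, was in none of the 11 windows. The CArG box, present in 1.16%, and the NF-kappaB motif, present in 9.96%, were likewise in none. The ETS motif CCGGAA, present in 14.5%, was in 1 SPRY2 window, beginning 142 bases before the start. The TATA box, present in 10.7%, was in DUSP1 alone of the 8 genes. The GC box GGGCGG, which is left in lower case, was in 8 of the 11 windows and in 42.6% of all promoters. These windows belong to 7 of the 8 genes, and DUSP6 was the gene without it. The median share of G and C was 65.6% over the 11 windows and 58.0% over all promoters. A match of letters is a description of sequence and not of binding.

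The RPKM values rise in whole-read steps, and these steps gave 28219032 to 36058872 mapped reads per sample, with the range of shRNA-NC (29847726 to 34635214) inside that of shRNA-UBC9. Among genes detected in both samples of a pair, 0 values were identical. Keratin genes of the line were high, with KRT7 at 555.7 ± 62.3 RPKM in shRNA-NC and 258.4 ± 37.6 RPKM in shRNA-UBC9 (SD, n = 3 each), whereas the uroplakins of differentiated urothelium stayed under the filter and KRT20 was at 0 RPKM in all 6 samples. All 4 keratins of the line and the urothelial factors GATA3 and PPARG fell, and CD44 rose. The mesenchymal marker VIM had 467.7 ± 45.1 RPKM in shRNA-NC and 365.9 ± 96.8 RPKM in shRNA-UBC9 (SD, n = 3 each). It did not pass, with a log2 fold change of -0.38 and an adjusted p-value of 0.121 (limma). Of 5 leukocyte markers, PTPRC reached at most 0.102 RPKM and CD3E at most 0.185 RPKM. PTPRC and CD3E both had 0 reads in shRNA-NC replicate 1 and in shRNA-UBC9 replicate 3, against 13 to 30 reads in each of the other samples. The cause of this split, which crosses the groups, was not tested. The leukocyte list summed to 2.06 to 4.05 RPKM in shRNA-NC and 19.6 to 49.3 RPKM in shRNA-UBC9. CD68, a lysosomal protein gene, held most of that sum, at 18.6 to 48.4 RPKM in shRNA-UBC9. The 5 fibroblast markers summed to at most 1.32 RPKM in any sample. Of these PDGFRB fell, having passed the filter only with its shRNA-NC samples, and COL1A1 rose, having passed only with its shRNA-UBC9 samples. The 4 endothelial markers summed to 2.64 to 3.26 RPKM in shRNA-NC and 0.338 to 1.07 RPKM in shRNA-UBC9, with PECAM1, VWF and KDR under the filter. CDH5 held most of the endothelial sum, at 2.58 to 3.15 RPKM in shRNA-NC and 0.241 to 1.02 RPKM in shRNA-UBC9. It fell by 2.2 on the log2 scale and passed the filter only with its shRNA-NC samples. The part of these markers in the results below was not tested.

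The level of each gene in every sample is plotted on a log axis. Because RPKM is scaled to gene length, levels can be compared between genes.

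**Figure D1:**
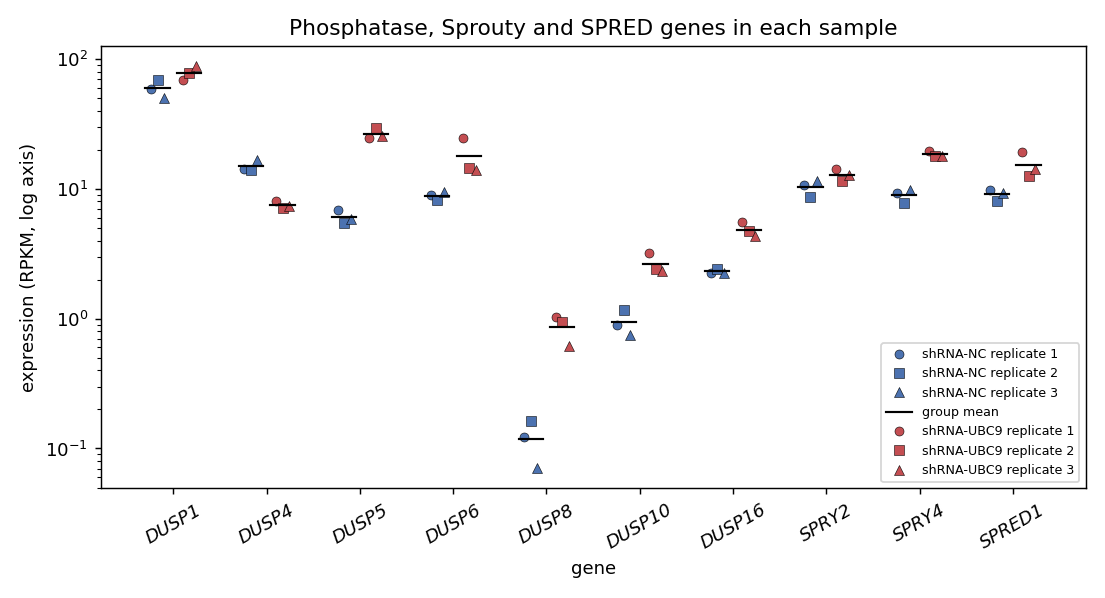
Expression of the 10 genes (RPKM, log axis) in the 3 shRNA-NC samples (blue) and the 3 shRNA-UBC9 samples (red), with marker shapes for replicates and black bars for group means. DUSP1 was the highest gene in both groups and DUSP8 the lowest, and the groups overlapped for DUSP1 alone.

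In shRNA-NC, DUSP1 was the highest of the 10 at a mean of 59.6 RPKM, followed by DUSP4 at 15.1 RPKM. SPRY2, SPRED1, SPRY4 and DUSP6 followed at means of 10.3, 9.09, 9.0 and 8.87 RPKM, and each neighbour in this order overlapped the next over the samples. DUSP5 at 6.04, DUSP16 at 2.31, DUSP10 at 0.936 and DUSP8 at 0.119 RPKM came last, without overlap between neighbours. In shRNA-UBC9, DUSP1 was again highest, at 78.3 RPKM. DUSP5 moved from the 7th place to the 2nd, at 26.6 RPKM, and DUSP4 from the 2nd to the 7th, at 7.52 RPKM, and neither overlapped its neighbours. The mean of DUSP1 was 502.0 times that of DUSP8 in shRNA-NC and 90.6 times in shRNA-UBC9.

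DUSP1, DUSP4 and DUSP5 encode inducible phosphatases of the nucleus, and they went different ways. DUSP5, which is selective for ERK, was measured at 6.82, 5.5 and 5.82 RPKM in shRNA-NC and at 24.7, 29.5 and 25.4 RPKM in shRNA-UBC9. Every shRNA-UBC9 sample lay above 3 times the highest shRNA-NC sample, and the replicates of each group were close to each other. Its mean RPKM was 4.39 times higher, with a log2 fold change of 2.12 (SE 0.113, adjusted p = 1.57e-05 from limma), the largest ratio of change to standard error among the 10 genes.

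DUSP4, a phosphatase of ERK and JNK, was the exception. It was measured at 14.3, 14.1 and 16.8 RPKM in shRNA-NC and at 8.03, 7.17 and 7.36 RPKM in shRNA-UBC9. All shRNA-UBC9 samples were below all shRNA-NC samples. The ratio of mean RPKM was 0.498 and the log2 fold change -0.99 (SE 0.0999, adjusted p = 0.000302 from limma). The gene lies on chromosome 8, from 29333064 to 29350684 on the minus strand (GRCh38, GENCODE release 44), with 4 exons in its canonical transcript.

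DUSP1, which acts on p38, JNK and ERK, was measured at 59.0, 69.5 and 50.5 RPKM in shRNA-NC and at 69.0, 77.6 and 88.4 RPKM in shRNA-UBC9. The highest shRNA-NC sample lay just above the lowest shRNA-UBC9 sample, so the groups overlapped. The log2 fold change of 0.40 (SE 0.137) had an adjusted p-value of 0.0514 from limma and did not pass. The call turned without shRNA-NC replicate 2 (log2 fold change 0.51, adjusted p = 0.0251), without shRNA-UBC9 replicate 1 (0.49, adjusted p = 0.0298), and with limma-voom on the whole reads (0.40, adjusted p = 0.0489), and over all alternatives the adjusted p-value ranged from 0.0251 to 0.172.

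DUSP6 encodes the cytoplasmic phosphatase that is selective for ERK and is a widely used readout of ERK feedback. It was measured at 9.03, 8.14 and 9.44 RPKM in shRNA-NC and at 24.7, 14.6 and 14.1 RPKM in shRNA-UBC9. All shRNA-UBC9 samples were above all shRNA-NC samples, and replicate 1 stood well above the other 2. Its mean RPKM was 2.01 times higher, with a log2 fold change of 0.95 (SE 0.201, adjusted p = 0.00766 from limma). When that replicate was left out, the change was 0.69 (SE 0.0974, adjusted p = 0.00168).

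Of the phosphatases with a preference for JNK and p38, DUSP10 and DUSP16 rose. DUSP8 rose as well, but the filter kept it only for its shRNA-UBC9 samples, so it had to differ. DUSP10 was measured at 0.897, 1.16 and 0.75 RPKM in shRNA-NC and at 3.21, 2.43 and 2.32 RPKM in shRNA-UBC9. These values came from 74 to 117 reads in shRNA-NC and 191 to 337 reads in shRNA-UBC9, and the groups did not overlap. DUSP10 thus had a log2 fold change of 1.42 (SE 0.187, adjusted p = 0.000969 from limma), and 0.91 with a pseudocount of 1. DUSP16 was measured at 2.25, 2.42 and 2.26 RPKM in shRNA-NC and at 5.59, 4.71 and 4.3 RPKM in shRNA-UBC9. Its shRNA-NC samples were close together and its lowest shRNA-UBC9 sample was well above them. This gave a log2 fold change of 1.04 (SE 0.117, adjusted p = 0.000497 from limma).

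DUSP8 was nearly silent in shRNA-NC, at 0.123, 0.163 and 0.0704 RPKM, from 17, 26 and 11 reads. In shRNA-UBC9 it was measured at 1.03, 0.947 and 0.614 RPKM, from 172, 154 and 80 reads. The exact 95% Poisson intervals, which cover counting error only, ended at 0.198, 0.238 and 0.126 RPKM in the shRNA-NC samples and began at 0.885, 0.803 and 0.487 RPKM in the shRNA-UBC9 samples. The intervals of the groups did not overlap. DUSP8 passed the expression filter only through its shRNA-UBC9 samples, so its groups had to differ. Neither the intervals nor the p-value below is a test of that difference. The mean RPKM of DUSP8 was 7.28 times higher, the largest ratio of the 10 genes. The log2 fold change of 2.14 (SE 0.294, adjusted p = 0.0012 from limma) depends on the pseudocount at this level, with 0.73 at a pseudocount of 1 and 2.90 from limma-voom on the reads. The pseudogenes DUSP8P3, DUSP8P4 and DUSP8P5 were listed at 0 RPKM in all samples.

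Of the Sprouty and SPRED adaptors, SPRY4 and SPRED1 rose. SPRY4, which restrains RAS activation below growth factor receptors, was measured at 9.35, 7.78 and 9.88 RPKM in shRNA-NC and at 19.7, 18.0 and 18.0 RPKM in shRNA-UBC9. The groups did not overlap. The ratio of mean RPKM was 2.06 and the log2 fold change 1.04 (SE 0.107, adjusted p = 0.000336 from limma).

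SPRED1, which brings the RAS GTPase-activating protein neurofibromin (NF1) to the membrane, was measured at 9.86, 8.09 and 9.32 RPKM in shRNA-NC and at 19.2, 12.5 and 14.3 RPKM in shRNA-UBC9. Replicate 1 was again the highest shRNA-UBC9 sample, and all 3 were above shRNA-NC. It changed by 0.73 on the log2 scale (SE 0.157, adjusted p = 0.00835 from limma), and by 0.56 without that replicate (adjusted p = 0.0085).

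SPRY2, the Sprouty paralogue of SPRY4, was measured at 10.7, 8.61 and 11.6 RPKM in shRNA-NC and at 14.2, 11.6 and 12.9 RPKM in shRNA-UBC9. The groups met at 11.6 RPKM, where the lowest shRNA-UBC9 value exceeded the highest shRNA-NC value by less than the rounding shown. The log2 fold change of 0.33 (SE 0.129, adjusted p = 0.0783 from limma) did not pass, and over all alternatives it ranged from 0.21 to 0.42 with adjusted p-values from 0.0668 to 0.204.

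**Figure D2:**
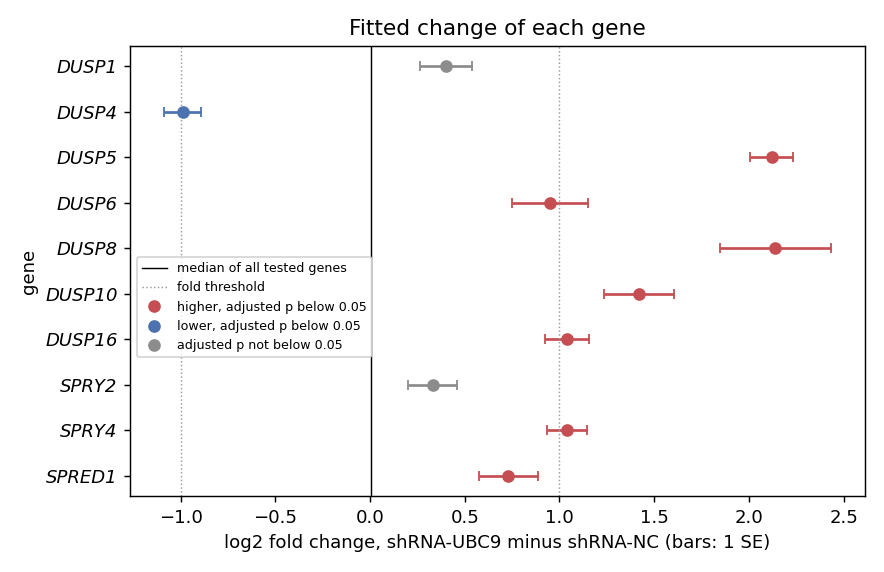
Fitted log2 fold change of each gene, shRNA-UBC9 minus shRNA-NC, with bars of 1 standard error from limma; dotted lines mark a log2 fold change of -1 and 1 and the solid line the median of all tested genes. DUSP5 and DUSP8 sit beyond 2, DUSP4 sits at -0.99, and the grey points are DUSP1 and SPRY2.

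In the plot of fitted changes the genes run from DUSP4 at -0.99 to DUSP8 at 2.14. The groups did not overlap for 9 of the 10 genes, 8 of them higher and 1 lower in shRNA-UBC9, and among all tested genes this held for 25.7% higher and 25.4% lower, 51.1% in all. Each of these 9 gave p = 0.1 in the exact two-sided permutation test, the smallest that 3 samples against 3 allow, and DUSP1 gave 0.2. DUSP8 is among the 9 and among the 8 that were higher. The filter kept it only for its shRNA-UBC9 samples, so its separation and its exact p-value were fixed in advance. Reads for the genes other than DUSP8 ranged from 74 to 5705 per sample.

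The shRNA-UBC9 samples were not alike in these genes. Replicate 1 was the highest shRNA-UBC9 sample for 8 of the 10 genes, replicate 2 for DUSP5 and replicate 3 for DUSP1. Of the 7 genes that rose, 6 were highest in replicate 1, which was also true of 45.2% of all 2339 genes that rose. The excess was largest for DUSP6 and SPRED1. ERRFI1, an inducible inhibitor of the EGF receptor, was measured at 225.9, 52.1 and 49.2 RPKM in replicates 1 to 3 of shRNA-UBC9, against 29.6 to 36.7 RPKM in shRNA-NC. EGR1, an immediate-early transcription factor gene, was measured at 51.3, 17.8 and 15.9 RPKM, against 1.02 to 2.27 RPKM in shRNA-NC. When this sample was left out, 8 of the 10 genes rose, DUSP1 being the added one, and 1 fell. DUSP8, which had to differ, is among the 8. In that fit 4183 of all 12428 tested genes were called at an adjusted p-value below 0.05, in either direction.

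**Figure D3:**
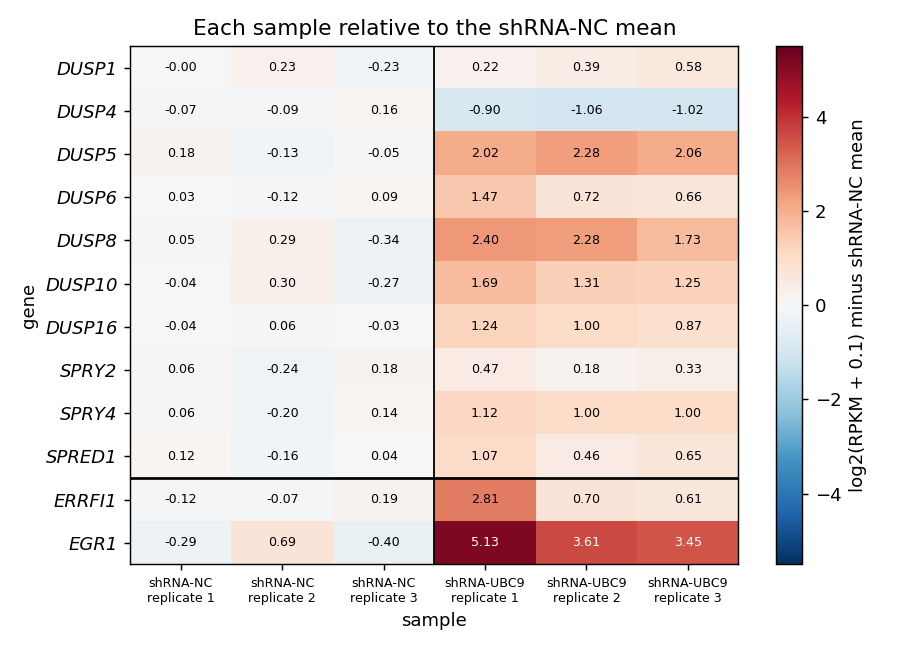
Each of the 6 samples relative to the shRNA-NC mean on the log2(RPKM + 0.1) scale, for the 10 genes and, below the line, for ERRFI1 and EGR1. In shRNA-UBC9 replicate 1 DUSP6 stood at 1.47 and ERRFI1 at 2.81, against 0.66 to 0.72 and 0.61 to 0.70 in the other 2 samples.

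In the map of samples relative to the shRNA-NC mean, DUSP4 was negative in all 3 shRNA-UBC9 samples, between -1.06 and -0.90, while the other 9 genes were positive in all 3. DUSP5 varied little, from 2.02 to 2.28. DUSP6 ranged from 0.66 to 1.47 and SPRED1 from 0.46 to 1.07, with replicate 1 highest in both.

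Of 7 further genes of the same families, 4 were expressed enough to be tested and 1 rose, with a median log2 fold change of 0.11. SPRED3 was the gene that rose, from 1.45 ± 0.0371 to 2.35 ± 0.228 RPKM (SD, n = 3 each; log2 fold change 0.66, adjusted p = 0.00371 from limma). DUSP7, a cytoplasmic ERK phosphatase like DUSP6, had 6.18 ± 0.429 and 4.85 ± 1.28 RPKM (SD, n = 3 each), and its adjusted p-value was 0.142 (limma). SPRY3 was under the filter, with 0.147 to 0.275 RPKM in shRNA-NC and 0.413 to 0.434 RPKM in shRNA-UBC9, and SPRY1 and DUSP2 were under it as well.

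Among 18 tested genes of the RAS-ERK cascade, 3 rose and 2 fell, and the median log2 fold change was 0.06. MAP2K1, which encodes the kinase MEK1 that activates ERK, rose from 23.8 ± 1.6 to 43.9 ± 5.67 RPKM (SD, n = 3 each; log2 fold change 0.87, adjusted p = 0.000776 from limma). GRB2, the adaptor that carries SOS to receptors, rose by 0.39 and BRAF by 0.31 on the log2 scale. NRAS fell from 28.7 ± 0.661 to 13.8 ± 0.831 RPKM (SD, n = 3 each; log2 fold change -1.05), and GAB1, a docking protein, had a log2 fold change of -0.91. HRAS, the RAS gene mutated in this line, had 78.7 ± 9.63 and 69.1 ± 8.76 RPKM (SD, n = 3 each; adjusted p = 0.262 from limma). MAPK3, which encodes the kinase ERK1, did not pass, with a log2 fold change of -0.19 and an adjusted p-value of 0.317 (limma).

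Among 20 tested genes of the JNK and p38 cascades, 6 rose and 2 fell, with a median log2 fold change of 0.02. The largest rise was that of MAP2K3, a kinase that activates p38, from 12.6 ± 1.9 to 22.2 ± 2.98 RPKM (SD, n = 3 each; log2 fold change 0.82, adjusted p = 0.00333 from limma). MAPK11 and MAPK13, which encode p38 kinases, rose by 0.41 and 0.38 on the log2 scale. MAP2K6, the other main p38 activator, fell by 0.91, but it passed the filter only through its shRNA-NC samples, and without it 1 of 19 genes fell. A fall was also measured for MAP3K5, a stress-activated kinase, which fell by 0.61 on the log2 scale. MAPK14 and MAPK8, the main p38 and JNK genes, had adjusted p-values of 0.406 and 0.12 (limma).

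Of 8 tested RAS GTPase-activating proteins, which switch RAS off, 1 rose and 2 fell, with a median log2 fold change of 0.04. NF1, the partner of SPRED1, had 6.99 ± 0.275 and 6.67 ± 0.384 RPKM (SD, n = 3 each; adjusted p = 0.579 from limma). RASAL2 fell by 0.61 and RASA4 by 1.15 on the log2 scale, and DAB2IP rose by 0.32. RASA4 passed the filter only through its shRNA-NC samples, and without it 1 of 7 genes fell. It also has near-identical copies in the genome, RASA4B among them at 0.352 to 1.1 RPKM, so its value is uncertain.

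Of 7 other tested brakes on the pathway, none rose and 2 fell, LRIG1 and PEBP1, with log2 fold changes of -0.64 and -0.41. SPRED2, already counted among the further family genes, is on this list too and did not pass. ERRFI1 had the largest log2 fold change of this list, 1.37 (SE 0.509, adjusted p = 0.0657 from limma). With shRNA-UBC9 replicate 1 left out, it had 0.66 and passed (adjusted p = 0.00372). PTPRR, a phosphatase that binds MAP kinases, was under the filter with 0, 0 and 1 reads in shRNA-NC and 26, 16 and 8 reads in shRNA-UBC9.

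The genes outside these families that are used with DUSP4, DUSP6, SPRY2 and SPRY4 as a transcript score of ERK output went both ways. Of the 6 tested, 2 rose and 1 fell, and the median log2 fold change was 0.08. PHLDA1 rose from 19.2 ± 0.159 to 41.9 ± 3.68 RPKM and EPHA2 from 69.5 ± 7.88 to 108.5 ± 7.95 RPKM (SD, n = 3 each), with log2 fold changes of 1.12 and 0.64 (adjusted p = 9.77e-05 and 0.00243 from limma). CCND1, the cyclin D gene, fell from 140.2 ± 8.86 to 104.1 ± 17.1 RPKM (SD, n = 3 each; adjusted p = 0.0255 from limma). The ETS factor genes ETV4 and ETV5 had log2 fold changes of 0.13 and 0.03 with adjusted p-values of 0.451 and 0.861 (limma).

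Of 12 tested genes listed as serum immediate-early, many but not all of them transcribed soon after ERK activation, 9 rose and none fell, with a median log2 fold change of 0.93. FOS and FOSB passed the filter only with their shRNA-UBC9 samples, and without them 7 of 10 rose, with a median of 0.90. EGR1 had a log2 fold change of 4.06 (SE 0.45, adjusted p = 0.000464 from limma), IER3 of 2.08 and JUNB of 1.66. MYC, ATF3 and SRF did not pass, with adjusted p-values of 0.284, 0.107 and 0.126 (limma). Replicate 1 was the highest shRNA-UBC9 sample for 7 of the 9 that rose, and without it 9 rose as well. Without that sample the RAS-ERK cascade had 2 genes that rose, the JNK and p38 cascades 4 that rose and 1 that fell, and the RAS GTPase-activating proteins 0 that rose. Of all 12428 tested genes, 4183 were called in that fit, in either direction.

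**Figure D4:**
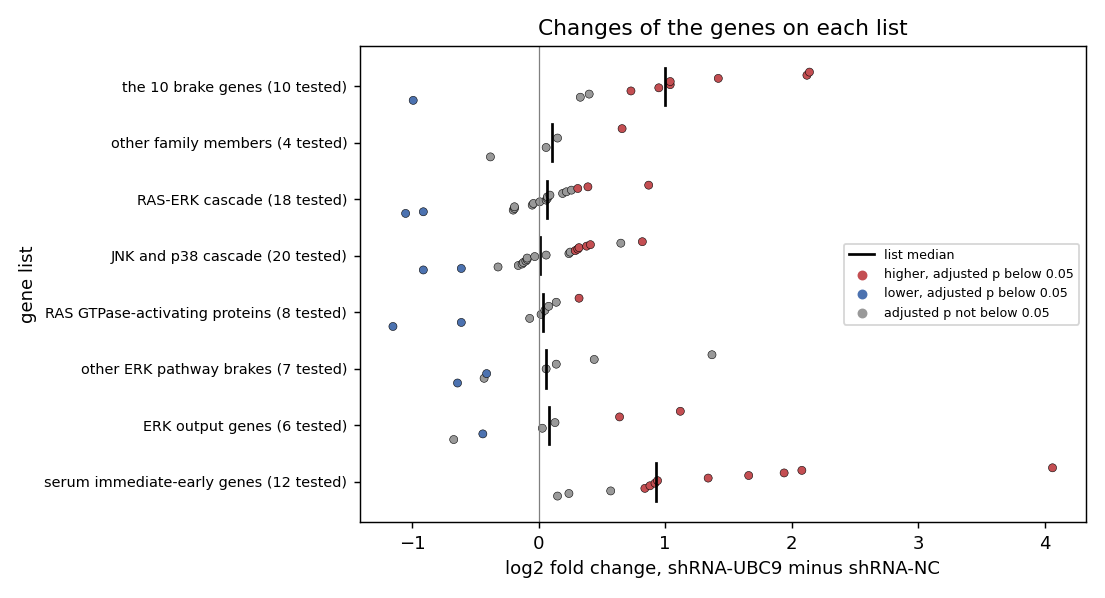
Log2 fold change, shRNA-UBC9 minus shRNA-NC, of every tested gene on each list, with red for genes that rose, blue for genes that fell and grey for genes that did not pass; black bars are list medians. The medians of the 10 brake genes and of the immediate-early genes lie at 0.99 and 0.93, and those of the other 6 lists between 0.02 and 0.11. The points include genes that passed the filter only with 1 group, among them DUSP8, FOS and FOSB. Without such genes the first 2 medians are 0.95 and 0.9, and those of the other 6 lists lie between 0.05 and 0.13.

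In the plot by list, the kinases and RAS proteins scatter around 0, and EGR1 stands alone beyond 4. The lists were of unequal size, and no difference between lists was tested. SPRED2 is shown both with the other family members and with the other brakes.

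The genes whose pattern over the 6 samples was most like that of DUSP5, by Pearson correlation of log2(RPKM + 0.1), were PFDN2 (r = 0.9994), TMEM206 (0.9991), SHISA5 (0.9986), and the rows UCA1_1 (0.9985) and LINC01347_2 (0.9983). For DUSP4 they were ACBD7 (0.999), IGBP1 (0.9983), YPEL1 (0.9981), RPS3A (0.9979) and SNRK (0.9974). With 6 samples that fall into 2 groups a correlation is high for any gene with a clear difference between groups, and 88 genes exceeded 0.99 with DUSP5 and 59 with DUSP4. The size of change was not shared: UCA1_1 had a log2 fold change of 3.57 and PFDN2 of 0.53.

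By position, the 10 genes lie on 8 chromosomes: DUSP1 and SPRY4 on chromosome 5, DUSP6 and DUSP16 on chromosome 12, and the others on chromosomes 1 (DUSP10), 8 (DUSP4), 10 (DUSP5), 11 (DUSP8), 13 (SPRY2) and 15 (SPRED1). DUSP5 spans 110497907 to 110511533 on the plus strand of chromosome 10 with 4 exons in its canonical transcript (GRCh38, GENCODE release 44). In that annotation an antisense non-coding gene shares exon bases with DUSP6, and none does with the other 9. The strand setting of the authors' counting is not given in the sources used here, so reads of such a pair cannot be told apart. SPRY4-IT1, a non-coding transcript of the SPRY4 locus, was listed at 0 RPKM in all samples.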

How the data were processed

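RNA of 6 samples of T24 cells, 3 shRNA-NC and 3 shRNA-UBC9, was analysed, with groups and replicate numbers taken from the labels. After adaptor trimming, the authors aligned the reads to GRCh38 (hg38 in the labels) with the CLC Biomedical Genomics Workbench 4 at default settings and deposited RPKM per gene. The annotation release, strand setting and handling of reads with several mapping places are not given in the sources used here, and RPKM does not correct for RNA composition.

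Genes with at least 0.5 RPKM in at least 3 samples (12428 genes) were tested with limma 3.58.1 in R 4.3.3 (lmFit, eBayes with an intensity trend) on log2(RPKM + 0.1), with Benjamini-Hochberg adjustment over all of them. Sums, correlations and figures used Python 3.11.15, numpy 2.4.6, pandas 2.3.3, scipy 1.17.1 and matplotlib 3.10.9. The 10 genes and all lists were chosen with earlier results of these data known. All 10 genes were named, with genes of the lists that passed the test or bear on a member, and the 5 genes most correlated with the member of largest positive and of largest negative moderated statistic. DUSP8P3 to DUSP8P5, SPRY4-IT1 and the genes named only to show values that did not pass were added after their values were seen. A few genes that the rule would name are not reported here.

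Single-exon genes of GENCODE release 44 fixed the total behind the RPKM of each sample, at 28219032 to 36058872 reads, and the smallest gene length that made all 6 samples whole within 0.02 reads gave reads for 99.97% of the tested genes. Whether a read pair counts as 1 read is not stated. A gene whose reads share a common factor is given fewer reads than it had, with its ratios kept. Reads were used to show depth and in 1 alternative.

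On simulated data of 12428 genes, the test recovered 85% of 100 genes set to a log2 change of 1 and 97% of 100 set to 2, in the comparison of shRNA-UBC9 with shRNA-NC. It also called 13 unchanged genes. Only those genes were changed and the noise was drawn independently for each gene, whereas 36.8% of genes were called in the data. The recovery in the data may therefore differ. Alternatives were other pseudocounts, filters and scalings, no trend, a replicate block, leaving out each sample, an unadjusted p-value and limma-voom on the reads.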

Additional observations from a re-analysis of the deposited data

How the results depend on the processing

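The counts of genes that rose (7) and fell (1) stayed within 6 to 8 and at 1 under 15 alternatives. The count was 8 with limma-voom on the recovered reads, an alternative chosen after seeing the data, and 6 when a mean of at least 1 RPKM was required, which removed DUSP8. Past the fold cutoff the count of 5 fell to 1 with a pseudocount of 1, which shrinks the fold of low genes by construction, and over all tested genes it fell from 981 to 552. Which genes passed also changed: median scaling left 3 higher and 1 lower, with DUSP4 in and DUSP16 and SPRY4 out, quantile normalization 4 higher and 1 lower, and limma-voom 5 higher and 1 lower, with 1056 of 12424 genes past the cutoff. Leaving out each sample gave 5 to 6 in both directions together, 926 to 1065 for all tested genes, and 3034 to 4183 for all genes called at an adjusted p-value below 0.05 (4576 with all samples), lowest without shRNA-NC replicate 3. No gene of the 10 changed direction, and only DUSP1 changed its call, in 3 of 15 alternatives. Scaling moved the median of all genes by -0.048 (quantile) and -0.042 (median scaling).

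No pairing by replicate number was seen: deviations of samples with the same number correlated at -0.367, 0.073 and -0.17. The deviations were taken from group means of 3 samples, which ties the correlations to each other, so they cannot exclude a pairing. Between samples with different numbers the correlations ran from -0.318 to 0.526. The highest was that of shRNA-NC replicate 1 with shRNA-UBC9 replicate 3, which the replicate block does not model. With a replicate block, 7 genes rose, 1 fell and 5 passed the fold cutoff, and over all tested genes 974 passed it and 3374 were called at an adjusted p-value below 0.05. Depth limited DUSP8 most among the 10, with 11 to 26 reads in each shRNA-NC sample.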

Other observations

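The DUSP genes not named above were counted by symbol after the values were seen. They were not sorted by the substrates they act on. Of 14 in the files, 8 were tested, 2 rose and none fell, with a median log2 fold change of 0.05. DUSP3 rose from 14.1 ± 1.94 to 20.1 ± 2.8 RPKM (SD, n = 3 each; log2 fold change 0.51, adjusted p = 0.018 from limma) and DUSP22 from 2.87 ± 0.183 to 3.94 ± 0.377 RPKM (SD, n = 3 each; log2 fold change 0.44, adjusted p = 0.015 from limma). DUSP11 and DUSP12, which had 5.5 and 13.4 RPKM in shRNA-NC, had adjusted p-values of 0.986 and 0.962.

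The immediate-early genes EGR2 and EGR3 were under the filter and were not tested. EGR2 had 1, 0 and 2 reads in shRNA-NC and 42, 19 and 13 reads in shRNA-UBC9. EGR3 had 1, 1 and 4 reads in shRNA-NC and 51, 23 and 26 reads in shRNA-UBC9. For both genes replicate 1 was the highest shRNA-UBC9 sample.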
